A study of Vitis vinifera with 6 samples.

Results

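NAC61 (VIT_08s0007g07640) and 4 related transcription factor genes, NAC60 (VIT_08s0007g07670), NAC33 (VIT_19s0027g00230), NAC17 (VIT_19s0014g03290) and NAC26 (VIT_01s0026g02710), were followed in grapevine leaves. The 5 genes were chosen by locus identifier among the 34369 features of a one-colour Agilent array, and each was read by 1 probe. RNA came from young leaves of in vitro plants of Vitis vinifera cv. Thompson Seedless, 6 weeks old at infiltration per the labels, although the methods of the study give a lower age at that step. In the OX.NAC61 group, plants were vacuum infiltrated with Agrobacterium tumefaciens carrying the NAC61 coding sequence of cv. Syrah under the 35S promoter, which is active in most plant tissues. In the control group, plants were infiltrated with the same strain carrying the same vector with a non-coding sequence. Leaves of both groups therefore carried the bacterium and a vector, and they were taken 7 days after infiltration. Of 7 plants infiltrated for overexpression and 5 for the control, 3 of each were hybridised, and the 3 OX.NAC61 plants were those with the highest NAC61 transcript level. Expression was transient, and the share of leaf cells that received the construct was not measured here.

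NAC proteins are plant transcription factors with a conserved DNA-binding domain at the amino terminus and a variable activation region, and they bind DNA as homodimers or heterodimers. Several of them start or speed leaf senescence, in which chlorophyll and the photosynthetic machinery are dismantled, and others govern fruit ripening. Among the grapevine members, NAC33 is known from leaf senescence and NAC60 from berry ripening as well. NAC17 is known from responses to drought and salinity, and NAC26 has been connected with berry size and with seed and fruit development. NAC61 itself is a gene of late ripening and of berries drying after harvest.

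The level of a gene is given as the log2 processed signal minus the 75th percentile of log2 signal on the same array, so that 0 is the 75th percentile itself. A feature was called at a limma adjusted p below 0.1 with a change of more than 1.5-fold. The 75th percentile of processed signal lay between 1772 and 2569 on the OX.NAC61 arrays and between 888.5 and 1613 on the control arrays. Scan day 1 held OX.NAC61 replicate 1 and all 3 controls, and scan day 2 held the other two OX.NAC61 arrays. All 3 control arrays were recorded at 1 position of the slide and no OX.NAC61 array was, so position and treatment cannot be told apart. The probes of the 5 genes were well above background on all 6 arrays, none was saturated and none was marked as an outlier. Levels of different probes were not compared with each other.

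Of the 5 genes, 4 were called higher in OX.NAC61 leaves, and NAC33 was not called. NAC61 is among the 4, and its call was largely set by the construct and the choice of plants. Of its 4 relatives, NAC60, NAC17 and NAC26 were called. Over the whole array 836 of 27052 tested features, or 3.09%, were called higher, 1007, or 3.72%, were called lower, and 1843, or 6.81%, were called in either direction. NAC17 had the largest log2 fold change of the 5, at 2.99, followed by NAC26 at 2.73, NAC60 at 1.71, NAC61 at 1.62 and NAC33 at 0.65. The 95% intervals of neighbours in this order overlapped. In the deposited log2 values NAC26 stood above NAC17, at 2.60 against 1.75. After normexp background correction with the local backgrounds as recorded, limma called none of the 5 and no feature at all, although 3335 features had an unadjusted p below 0.05. In the same 4 genes every OX.NAC61 array lay above every control array, which was also so for 9.9% of the features measured on all arrays. For NAC61 this too was largely set by the choice of plants.

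**Figure D1:**
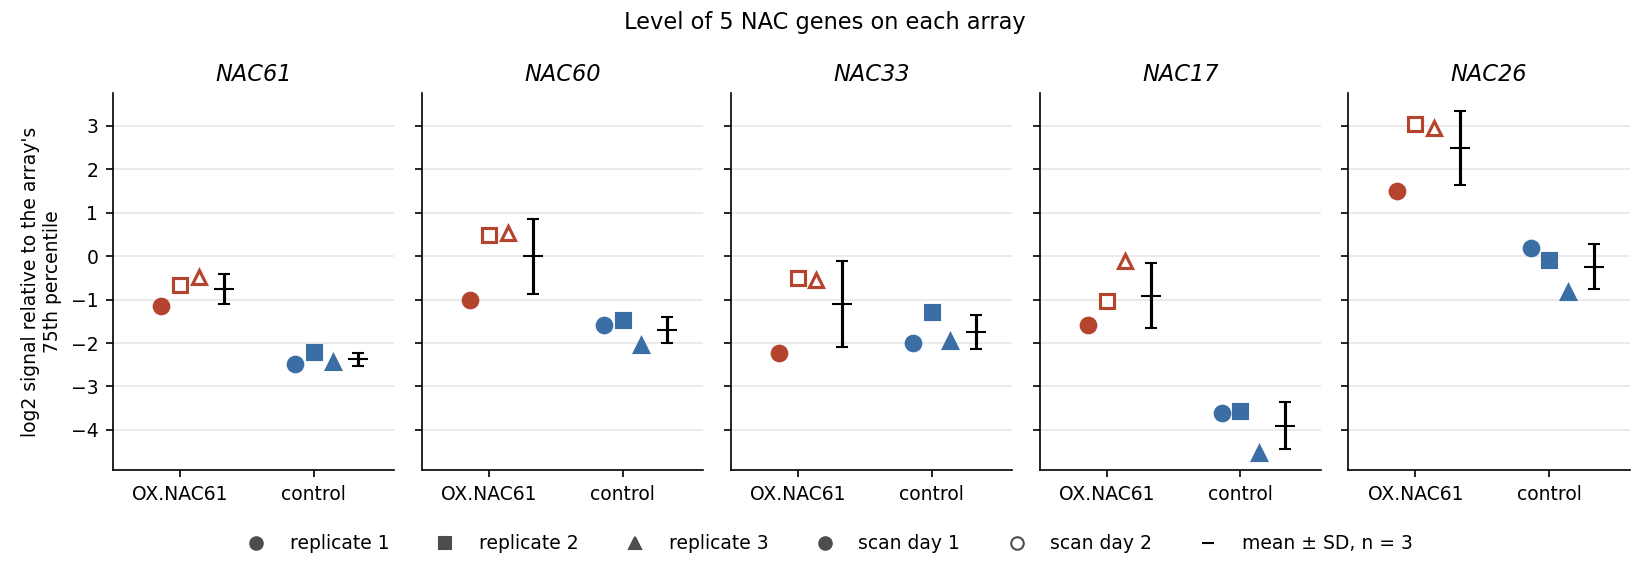
Level of NAC61, NAC60, NAC33, NAC17 and NAC26 on each array, as log2 signal relative to the 75th percentile of the array, with OX.NAC61 arrays in red and control arrays in blue. Symbols mark replicates, filled symbols scan day 1 and open symbols scan day 2, and bars give the mean ± SD of 3 arrays. OX.NAC61 replicate 1, the filled red circle, is the lowest OX.NAC61 array in all 5 panels, and in the NAC33 panel it lies below the control arrays.

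NAC61, the gene carried by the construct, was examined first. Its processed signal was 798.6, 1630 and 1573 on OX.NAC61 replicates 1, 2 and 3, against 288.7, 286.4 and 163.6 on control replicates 1, 2 and 3. In the same order of arrays its level was -1.15, -0.66 and -0.47 in OX.NAC61 leaves and -2.48, -2.21 and -2.44 in control leaves. The groups were separated by a gap of 1.06 on the log2 scale, wider than the range of either group. NAC61 averaged -0.76 ± 0.35 in OX.NAC61 leaves and -2.38 ± 0.14 in control leaves (SD, n = 3 each), and it was 3.07-fold higher with overexpression (log2 fold change 1.62, SE 0.21, limma adjusted p 0.0285). Because the plants had been chosen for this transcript, the difference checks the labels and is no finding. No probe sequence was used here, and signal from the introduced copy and from the plant's own gene cannot be told apart. By log2 fold change, from the highest down, the NAC61 probe stood at rank 557 of 27052 features. Of the 836 features called higher, 429 ranked above it. Without control replicate 2 the limma adjusted p of NAC61 was 0.125, and without control replicate 3 it was 0.105. Those fits called 71 and 220 features in all, against 1843 with every array.

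NAC60, a ripening and senescence regulator that lies close to NAC61 on chromosome 8, was higher in OX.NAC61 leaves, just inside the threshold. Its processed signal was 884.6, 3573 and 3142 on OX.NAC61 replicates 1, 2 and 3, against 534.8, 477.1 and 214.7 on the control arrays. The level was -1.0, 0.48 and 0.52 in OX.NAC61 leaves and -1.59, -1.48 and -2.05 in control leaves. The arrays did not overlap, but OX.NAC61 replicate 1 was nearer to the highest control array than to the other two OX.NAC61 arrays. NAC60 averaged 0.00 ± 0.87 in OX.NAC61 leaves and -1.71 ± 0.30 in control leaves (SD, n = 3 each), a 3.26-fold difference (log2 fold change 1.71, SE 0.44, limma adjusted p 0.0996). The call was lost in 15 of 19 alternatives, with limma adjusted p-values over all of them between 0.0297 and 0.442, while the log2 fold change stayed above 0 in all 19. Leaving out any 1 array other than OX.NAC61 replicate 1 ended the call. The limma adjusted p of NAC60 was 0.173, 0.26 and 0.256 without control replicates 1, 2 and 3 in turn. It was 0.229 and 0.239 without OX.NAC61 replicates 2 and 3 in turn. In this order, those fits called 1031, 71, 220, 705 and 328 features in all, against 1843 with every array.

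NAC33, a senescence gene that stands near NAC61 in the family tree, did not pass the test. Its processed signal was 375.2, 1817 and 1497 on OX.NAC61 replicates 1, 2 and 3, against 405, 544.8 and 230 on the control arrays. The level was -2.24, -0.50 and -0.55 in OX.NAC61 leaves and -1.99, -1.29 and -1.95 in control leaves. OX.NAC61 replicates 2 and 3 lay above all control arrays, while OX.NAC61 replicate 1 had the lowest level of the 6 arrays. NAC33 averaged -1.09 ± 0.99 in OX.NAC61 leaves and -1.74 ± 0.40 in control leaves (SD, n = 3 each), and the difference was within the spread of the arrays (log2 fold change 0.65, 95% interval -0.56 to 1.86, limma adjusted p 0.529). Without OX.NAC61 replicate 1 NAC33 was called, at a log2 fold change of 1.22 (limma adjusted p 0.0651). That fit called 3224 features in all, against 1843 with every array. Over 19 alternatives the limma adjusted p of NAC33 lay between 0.0651 and 0.83.

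NAC17, a stress-responsive gene, showed the widest separation of the 5 in the comparison as reported. Its processed signal was 586.8, 1265 and 2032 on OX.NAC61 replicates 1, 2 and 3, against 133, 111.9 and 38.44 on the control arrays. The level was -1.59, -1.02 and -0.11 in OX.NAC61 leaves and -3.60, -3.57 and -4.53 in control leaves. A gap of 1.98 on the log2 scale separated the lowest OX.NAC61 array from the highest control array. NAC17 averaged -0.91 ± 0.75 in OX.NAC61 leaves and -3.90 ± 0.55 in control leaves (SD, n = 3 each), and it was 7.96-fold higher (log2 fold change 2.99, SE 0.44, limma adjusted p 0.0337), at rank 158 of 27052. The log2 fold change was smaller in the deposited log2 values, at 1.75, and after normexp background correction, at 1.41. There NAC26 had the larger change, at 2.60 and 2.66, so the lead of NAC17 depended on the treatment of background. The limma adjusted p was 0.138 without control replicate 2 and 0.108 without control replicate 3. Those fits called 71 and 220 features in all, against 1843 with every array.

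NAC26, the gene connected with fruit and seed development, was also higher by more than the spread between arrays. Its processed signal was 5028, 21060 and 16770 on OX.NAC61 replicates 1, 2 and 3, against 1828, 1253 and 503.2 on the control arrays. The level was 1.5, 3.04 and 2.94 in OX.NAC61 leaves and 0.18, -0.08 and -0.82 in control leaves. Every OX.NAC61 array lay at least 1.32 on the log2 scale above every control array. NAC26 averaged 2.49 ± 0.86 in OX.NAC61 leaves and -0.24 ± 0.52 in control leaves (SD, n = 3 each), a 6.66-fold difference (log2 fold change 2.73, SE 0.47, limma adjusted p 0.0447), at rank 195 of 27052. Under the alternatives for background, normalisation, scaling and filter, and in the deposited values, the log2 fold change stayed between 2.60 and 2.76. The limma adjusted p was 0.113 and 0.141 without OX.NAC61 replicates 2 and 3, and 0.179 and 0.138 without control replicates 2 and 3. In this order, those fits called 705, 328, 71 and 220 features in all, against 1843 with every array.

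The order of the OX.NAC61 arrays was then compared between genes, to ask how the relatives followed NAC61. In all 5 genes OX.NAC61 replicate 1 was the lowest of the 3. This array was the lowest in 31.9% of all features and in 38.6% of the features called higher, and since the 5 genes were read on the same arrays they are not independent. Set against the mean of the control arrays, NAC61 was higher by 1.23, 1.72 and 1.90 on OX.NAC61 replicates 1, 2 and 3. NAC60 was higher by 0.70, 2.18 and 2.23, and NAC26 by 1.75, 3.28 and 3.18. For both genes OX.NAC61 replicates 2 and 3 were close to each other and well above replicate 1. NAC17 was higher by 2.31, 2.88 and 3.79. NAC60 and NAC17 had the order of NAC61, although for NAC60 replicates 2 and 3 were nearly level. NAC33 lay 0.50 below the control mean on OX.NAC61 replicate 1 and 1.24 and 1.20 above it on replicates 2 and 3. Control replicate 2 lay above the control mean in all 5 genes, by 0.16 to 0.46. Control replicate 3 lay below it in all 5, with deviations from -0.63 to -0.06. The share of all features with this pattern was not computed, so it is not shown to be particular to these genes. No correlation across the 6 arrays is given, because for most of these genes the arrays fall into 2 separate groups of 3.

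OX.NAC61 replicate 1 was also the only OX.NAC61 array scanned on the same day as the controls. The mean of OX.NAC61 replicates 2 and 3 exceeded OX.NAC61 replicate 1 by 0.58 for NAC61, 1.5 for NAC60, 1.72 for NAC33, 1.03 for NAC17 and 1.48 for NAC26, all on the log2 scale, against a median of -0.07 over all features. Only 0.326% of features exceeded NAC33 in this difference, 0.493% exceeded NAC60 and 0.537% exceeded NAC26. For NAC17 and NAC61 the shares were 1.4% and 4.77%. Scan day and plant cannot be told apart within the OX.NAC61 group. Within scan day 1, that is OX.NAC61 replicate 1 against the controls, the log2 differences were 1.23 for NAC61, 0.70 for NAC60, -0.50 for NAC33, 2.31 for NAC17 and 1.75 for NAC26. Once scan day was a block, limma called none of the 5 (limma adjusted p between 0.198 for NAC61 and 0.68 for NAC33) and 13 features in all. In that fit 4 of the 5 had an unadjusted limma p below 0.05, as had 2989 of 27037 features.

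The recorded slide gave a second division of the arrays. On slide 1, which held OX.NAC61 replicates 1 and 3 and control replicate 3, the log2 differences were 1.63 for NAC61, 1.81 for NAC60, 0.56 for NAC33, 3.68 for NAC17 and 3.04 for NAC26. On slide 2, with OX.NAC61 replicate 2 and control replicate 2, they were 1.56 for NAC61, 1.95 for NAC60, 0.79 for NAC33, 2.55 for NAC17 and 3.12 for NAC26. The differences of all 5 genes were above 0 on both slides, but the share of all features with this pattern was not computed. With slide as a block only NAC26 kept its call (limma adjusted p 0.0947), and NAC61 had a limma adjusted p of 0.104. In that fit 589 of 27033 features were called. An unadjusted limma p below 0.05 was found for 4 of the 5 genes, and for 5078 of all features. OX.NAC61 replicates 1 and 3 were recorded at the same position of the same slide on different days, so the slide values rest on a record in which 2 arrays share 1 place.

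**Figure D2:**
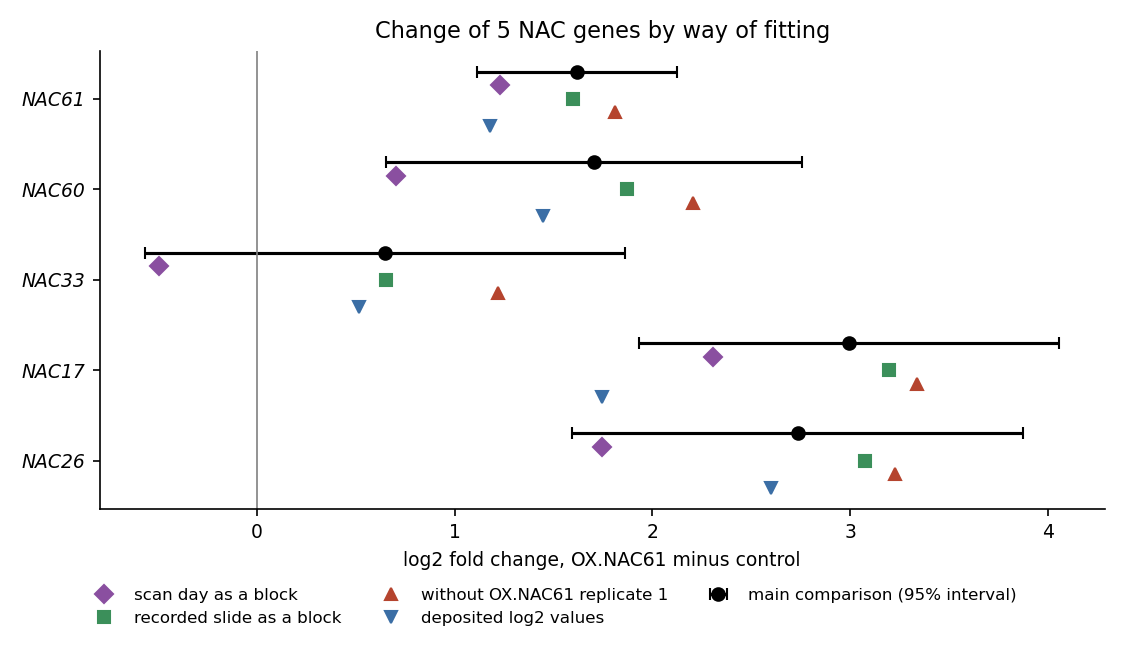
Log2 fold change of the 5 NAC genes, OX.NAC61 minus control, in the comparison of all 6 arrays with its 95% interval (black circles), with scan day or recorded slide as a block, without OX.NAC61 replicate 1, and in the deposited log2 values. Values without OX.NAC61 replicate 1 are the highest in each row, and the scan-day value of NAC33 (-0.50) is the one point below 0.

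Each relative was next set against NAC61 on the same array, which removes the scaling of the array and asks whether it changed by the same amount. The ratio of NAC60 to NAC61 did not differ beyond the spread: on the log2 scale it was 0.15, 1.13 and 1.0 on OX.NAC61 replicates 1, 2 and 3 and 0.89, 0.74 and 0.39 on the control arrays. The difference in the NAC60 ratio was 0.09 (exact permutation test, two-sided, p = 0.8), and its sign turned when OX.NAC61 replicate 2, OX.NAC61 replicate 3 or control replicate 3 was left out. The ratio of NAC17 to NAC61 was -0.44, -0.37 and 0.37 on OX.NAC61 replicates 1, 2 and 3 and -1.12, -1.36 and -2.09 on the control arrays. It was higher on every OX.NAC61 array, by 1.37 on average, but by 0.53 after normexp background correction and 0.57 in the deposited values. For NAC33 the ratio was -1.09, 0.16 and -0.07 on OX.NAC61 replicates 1, 2 and 3 and 0.49, 0.93 and 0.49 on the control arrays. It was lower on every OX.NAC61 array, by 0.97 on average. NAC61 itself was higher by 1.62 in plants chosen for it, so a gene that did not change would also have a lower ratio. The lower ratio of NAC33 is therefore no separate finding, and the share of all features with a lower ratio was not computed. NAC26 had a log2 ratio of 2.65, 3.69 and 3.41 on OX.NAC61 replicates 1, 2 and 3 and 2.66, 2.13 and 1.62 on the control arrays, a difference of 1.12, with OX.NAC61 replicate 1 just below control replicate 1. With 3 arrays in each group the exact test cannot give a p below 0.1, which NAC17 and NAC33 both reached. NAC26 gave p = 0.2, and after Benjamini-Hochberg adjustment of the exact p-values over the 4 ratios the values were 0.2 for NAC17 and NAC33, 0.267 for NAC26 and 0.8 for NAC60.

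**Figure D3:**
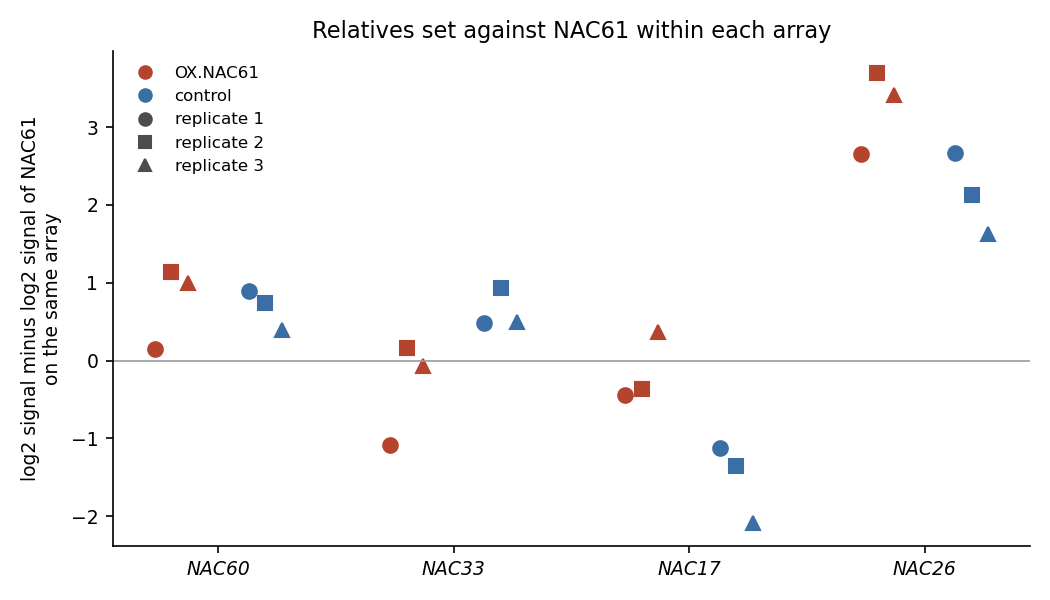
Log2 signal of NAC60, NAC33, NAC17 and NAC26 minus log2 signal of NAC61 on the same array, 1 point per array, with OX.NAC61 arrays (red) left of control arrays (blue). Only a shift between the groups can be read, since levels of different probes are not comparable. NAC17 lies higher and NAC33 lower on all OX.NAC61 arrays, while NAC60 and NAC26 overlap. A gene that did not change would also lie lower, because NAC61 was higher in OX.NAC61 leaves.

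Likeness to NAC61 was measured over all features as the root mean square difference across the 6 arrays, after each level was set against its control mean. NAC60 was the nearest of the relatives, at rank 91 of 26985 features with a distance of 0.35. NAC33 had rank 1488 (0.80), NAC26 rank 2461 (0.90) and NAC17 rank 5521 (1.05). NAC17 and NAC26 lay far away with larger changes than NAC61, and NAC33 with a smaller one. The distance thus depends on the size of the NAC61 change, which the construct and the choice of plants largely set. The rank of NAC60 therefore does not show that it followed NAC61 from array to array. The nearest features of all were VIT_00s0480g00010 (0.16), VIT_02s0012g00390 (0.18), VIT_03s0091g00670 (0.18), VIT_05s0049g01980 (0.18) and VIT_17s0000g07080 (0.20), which keep their identifiers because no names were matched. All 5 were called higher in OX.NAC61, with log2 fold changes from 1.42 to 1.78. These calls were largely fixed by the choice, since the features were picked for likeness to NAC61. VIT_00s0480g00010 was dim, with levels of -7.86, -7.87 and -8.24 on control replicates 1, 2 and 3.

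The loci around NAC61 and NAC60 were read in the order of their identifiers, from VIT_08s0007g07600 to VIT_08s0007g07710. All 12 features were well above background on all arrays, and NAC61 and NAC60 were the only ones called. Between them lie 2 loci that did not follow them. NAC60bis (VIT_08s0007g07660) had a level of -6.13, -6.11 and -7.07 on OX.NAC61 replicates 1, 2 and 3 and of -5.91, -6.13 and -5.90 on the control arrays. Its groups overlapped (log2 fold change -0.46, SE 0.28, limma adjusted p 0.426). VIT_08s0007g07650 had a level of 2.93, 1.80 and 2.41 on OX.NAC61 replicates 1, 2 and 3 and of 3.29, 3.77 and 3.63 on the control arrays. Every OX.NAC61 array of this locus lay below every control array, and the change just missed the threshold (log2 fold change -1.18, SE 0.31, limma adjusted p 0.103). The other 8 loci had log2 fold changes between -0.31 and 0.68 and were not called. Whether the probe of one NAC gene also binds transcripts of another was not tested.

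**Figure D4:**
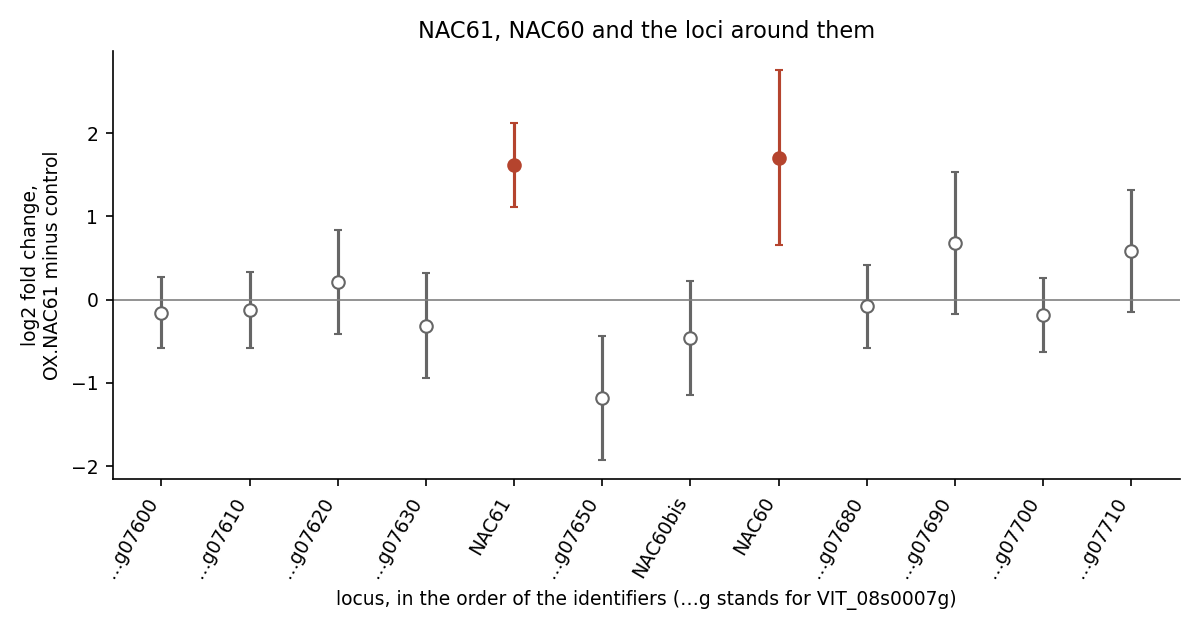
Log2 fold change, OX.NAC61 minus control, with 95% interval, of the 12 features from VIT_08s0007g07600 to VIT_08s0007g07710 in the order of their identifiers. Filled red points, NAC61 and NAC60, are the called features, and the loci between and beside them (open) have lower values.

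The rest of the NAC family was examined next, and most of it was not called. Of 21 further NAC genes listed from the study's supplementary tables, 20 were tested. Limma called 3 higher (3.09% of all features were) and none lower (3.72% of all features were). An unadjusted limma p below 0.05 was found for 5 of the 20, with 1 of these lower, and for 5513 of 27052 features. The gene left untested was NAC68, whose probe was well above background on none of the arrays. The median log2 fold change of the 20 was 0.31, against -0.05 over all features, with 12 above 0 and 8 below, and a range from -1.24 (NAC29) to 2.12 (NAC05). NAC05 (VIT_17s0000g06400), listed as co-expressed with NAC61 in experiments without these arrays, had a level of -2.87, -1.77 and -1.57 on OX.NAC61 replicates 1, 2 and 3 and of -3.61, -4.12 and -4.84 on the control arrays. Its groups did not overlap (log2 fold change 2.12, SE 0.44, limma adjusted p 0.0652), and OX.NAC61 replicate 1 was again the lowest of its group. NAC44 (VIT_06s0004g00020) had a level of -1.37, -2.55 and -2.56 on OX.NAC61 replicates 1, 2 and 3 and of -3.39, -3.89 and -3.43 on the control arrays (log2 fold change 1.42, SE 0.36, limma adjusted p 0.0976). Here OX.NAC61 replicate 1 was the highest array, the reverse of the 5 genes above. NAC39 (VIT_07s0031g02610), listed because the study had called it on these arrays and so no independent evidence, had a log2 fold change of 0.97 (SE 0.22, limma adjusted p 0.0757). NAC11 (VIT_14s0108g01070), also co-expressed with NAC61 elsewhere, had a level of 2.35, 3.52 and 3.76 on OX.NAC61 replicates 1, 2 and 3 and of 2.08, 2.76 and 1.81 on the control arrays, and was not called (log2 fold change 0.99, limma adjusted p 0.259). OX.NAC61 replicate 1 of NAC11 fell within the controls, while the other two OX.NAC61 arrays lay above them. NAC19 was lower on every OX.NAC61 array, as were 16.3% of all features, but was not called (log2 fold change -0.61, limma adjusted p 0.101). By origin of the listing, limma called 1 of 6 genes from co-expression and 1 of 7 from the array annotation, numbers too small to set against the 3.09% of all features. The other 6 tested genes came from a list of promoters bound by NAC61 from which the genes called in the study had been taken out. Their lack of calls was largely fixed by the choice (1 had an unadjusted limma p below 0.05, as had 5513 of 27052 features). OX.NAC61 replicate 1 was the lowest of its group in 5 of the 20.

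**Figure D5:**
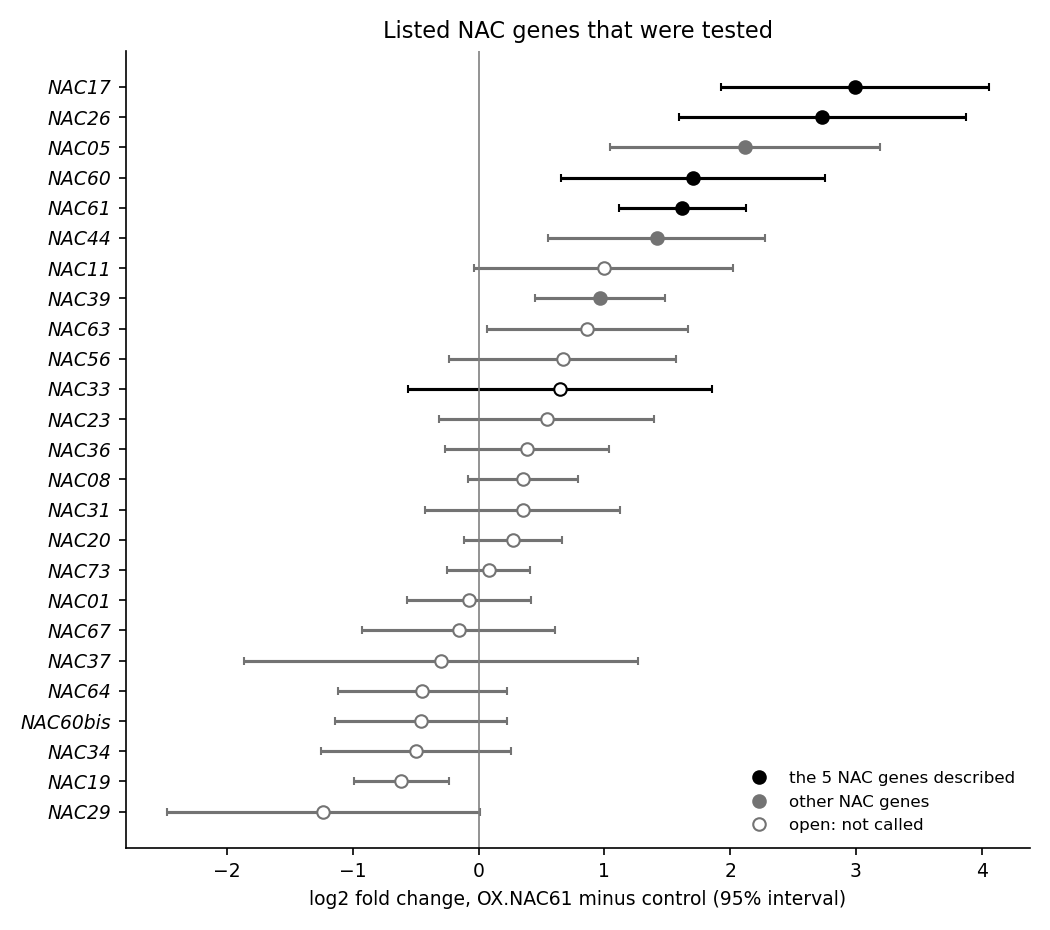
Log2 fold change, OX.NAC61 minus control, with 95% interval for NAC61, NAC60, NAC33, NAC17 and NAC26 (black) and the 20 other NAC genes tested (grey), sorted by value. Filled points were called, and NAC17 and NAC26 stand above all others.

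Genes annotated with leaf senescence were examined beside the senescence NAC genes. Of 8 such genes, 1 was called higher (3.09% of all features were), 2 were called lower (3.72% of all features were) and 5 were not called. The median of the 8 was -0.42 on the log2 scale, against -0.05 over all features. The choice of genes largely set this tally: 2 had been listed as called in the study, and both were called lower, while 4 came from a list of bound promoters without the genes called in the study, and none of these was called. The remaining 2, a leaf senescence protein gene and stay-green protein 1, came from co-expression in other experiments. The leaf senescence protein gene (VIT_14s0066g01710) was higher, with a log2 fold change of 1.0 (SE 0.21, limma adjusted p 0.0640). Stay-green protein 1 (VIT_02s0025g04660), whose relatives take part in the breakdown of chlorophyll, had a level of 1.59, 3.20 and 3.10 on OX.NAC61 replicates 1, 2 and 3 and of 1.20, 1.21 and 0.55 on the control arrays. It was higher on every OX.NAC61 array, with replicate 1 close to the controls as for NAC60, but its log2 fold change of 1.64 (SE 0.46) missed the threshold (limma adjusted p 0.123). A stay-green protein 2 gene (VIT_18s0001g01250) and a senescence-associated protein gene (VIT_02s0012g00280) were lower, with log2 fold changes of -0.89 (limma adjusted p 0.0903) and -0.87 (limma adjusted p 0.0738). Both of these genes were listed because the study had called them on these arrays, so they are no independent evidence of a direction.

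The leaf tissue was checked against 10 photosynthesis genes, most of them listed by the study from these arrays. All 10 were well above background on all arrays, 9 were called lower (3.72% of all features were), and the median log2 fold change was -0.99. The choice of genes largely set these calls, so they are no independent evidence of a direction. Their summed level, in multiples of the 75th percentile, was 122.9 to 165.5 on the OX.NAC61 arrays and 272.6 to 308.8 on the control arrays. MYB60, a guard cell gene, and 2 MYB85 genes of secondary walls were not called (log2 fold changes from -0.13 to 0.92). The MYB85 genes differed. VIT_16s0022g01210 was higher on every OX.NAC61 array (log2 fold change 0.92, limma adjusted p 0.189), as were 9.9% of all features. VIT_00s1241g00010 overlapped between the groups (log2 fold change -0.04). In whole leaves, fewer cells of a type and less RNA per cell cannot be told apart, and the part of leaf composition in the NAC values was not tested. UBI1 (log2 fold change 0.04) and EF1 (-0.25), genes used as references, were also not called.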

How the data were processed

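Per the file headers, the deposited intensity values of the 6 arrays came from Agilent Feature Extraction 10.5.1.1, as a background-subtracted processed signal per spot, with no normalisation between arrays. A further table deposited by the authors holds log2 values. On each array they follow the order of background-subtracted median signal, their column medians lie between 9.61 and 9.62, and they served as an alternative.

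Control spots were left out, outlier-marked spots were set to missing (81 features), and the 75th percentile of each array was subtracted from its log2 processed signal. Where 3 or more arrays read a feature well above background, OX.NAC61 was compared with control in R 4.3.3 by limma 3.58.1, two-sided and without covariates, with Benjamini-Hochberg adjustment over 27052 features. The script was tested on simulated data. Replicates were separate plants per the methods, and the number of arrays limits precision. Scan day and slide were read from the headers. Alternatives changed background, scaling, filters, blocks, variance model and thresholds, or left out 1 array.

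Members, gene lists and tests were chosen with earlier results of these data known. Genes named are the members, the called genes of each list and those needed for comparison, the loci around NAC61 and the 5 features nearest to it. Names are those of the study. Sequences and coordinates were not used here.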

Additional observations from a re-analysis of the deposited data

How the results depend on the processing

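The log2 fold changes of NAC61, NAC60, NAC17 and NAC26 stayed above 0 in all 19 alternatives each, and that of NAC33 in 18, turning to -0.50 with scan day as a block. Calls were less stable. Of the 5 genes, limma called 4. Normexp background correction and the scan-day block called 0 each, and the slide block called 1. With normexp 2 of the 5 had an unadjusted limma p below 0.05, as had 3335 of 27052 features. With the scan-day block 4 of the 5 did, as did 2989 of 27037 features. Leaving out 1 array gave 0 (without control replicate 2 or 3) to 5 (without OX.NAC61 replicate 1). NAC60 alone lost its call under quantile normalisation, median scaling, no filter, outlier spots kept, deposited values and robust variance, while its limma adjusted p was 0.1 to 0.124. Causes were not tested. Day 2 held no control array.

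Correlations of deviations across features between same-numbered arrays of the groups were 0.21, -0.04 and 0.21. Differently numbered arrays were not compared in this way, so these values cannot tell whether the numbers pair the arrays. With the replicate block 1020 features were called, with 2 of the 5 genes (NAC17 and NAC61), 0 other NAC genes and 0 senescence-annotated genes. Of the last 2 lists, 7 and 5 genes had an unadjusted limma p below 0.05, as had 5497 of 27047 features.

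Features called numbered 1843, against 0 with normexp, 5277 with normexp after outlying backgrounds were replaced, 1157 in the deposited values, 13 with the scan-day block, 589 with the slide block, 657 at an adjusted p below 0.05 and 71 to 3224 with 1 array left out. The share of higher calls was 45.4%, but 15.6% with replaced backgrounds (median of all features -0.21), 76.9% and 74.5% with the scan-day and slide blocks, 62.4% with the replicate block, and 32.8% (without OX.NAC61 replicate 1) to 90.1% (without control replicate 2) with 1 array left out. Counts of other NAC genes called were 3 in the comparison as reported, 0 with normexp, 7 with replaced backgrounds, 1 without a filter, 0 and 1 with the scan-day and slide blocks, 0 at an adjusted p below 0.05, and 0 to 5 with 1 array left out. Counts of senescence-annotated genes called were 3 as reported, 0 with normexp, 1 without a filter, 0 with either block or at an adjusted p below 0.05, and 0 to 5 with 1 array left out. The difference of the within-array ratio to NAC61 was 1.37 for NAC17, against 0.53 with normexp, 0.85 with replaced backgrounds and 0.57 in the deposited values, and 1.12 for NAC26, against 1.78 with normexp. For NAC60 it was 0.09, and -0.10, -0.03 and -0.05 without OX.NAC61 replicate 2, OX.NAC61 replicate 3 and control replicate 3, up to 0.39 with other arrays left out. With 1 array left out it was 1.09 to 1.58 for NAC17, 0.86 to 1.42 for NAC26 and -1.22 to -0.59 for NAC33.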
